A study of Homo sapiens with 6 samples.

Results

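The genes described here encode the mitochondrial carrier family SLC25 in SW480 cells, an established human colon adenocarcinoma line. They are the rows of the deposited table whose symbol starts with SLC25A, together with UCP2, and without SLC25A1 and SLC25A10. The rule gave 47 of the 20289 genes in the table. mRNA was sequenced from 3 libraries of the group LV-NC, labelled wild type with the treatment "None / LV-NC", and 3 of MUCP1-FLAG, whose cells overexpress MUCP1-Flag, a tagged microprotein. Cells of both groups grew in serum-supplemented L-15. Titles number the libraries of each group 1 to 3 as biological replicates, without a clone, passage, day or batch, so p-values measure the spread between these libraries, which may be technical. The level of MUCP1 itself was not analysed here, since the table holds no gene of that name. The comparison asks which genes respond to raised MUCP1, with metabolism and signalling of particular interest to the submitters.

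SLC25 carriers are small proteins of the mitochondrial inner membrane that exchange metabolites between the cytosol and the matrix. Each carrier binds its substrate from one side, changes shape and releases it on the other side, and most of them swap one molecule for another. They supply oxidative phosphorylation with ADP and phosphate and link the metabolism of amino acids, nucleotides, cofactors and carbon acids in the 2 compartments. In the gene ontology terms of the deposited table, all 47 members had a mitochondrial component term and 45 the inner membrane term. SLC25A46 resides in the outer membrane and SLC25A17 in peroxisomes.

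Library totals ran from 17333329 to 23282604 counts, and mitochondrially encoded transcripts took 5.91% to 6.61% of them. Of the keratin genes of simple epithelia, KRT8 was abundant, at 3403 to 3819 CPM (counts scaled to library size). Of 13 markers of colon epithelial carcinoma cells, 7 were tested, and CDX1 and LGALS4 had no read. CEACAM5, CEACAM6, KRT20 and GPA33 had at most 4 counts in a library. The summed level of the 13 was 6393 to 7070 CPM in LV-NC, against 6876 to 7054 CPM in MUCP1-FLAG. Most of it was KRT8, KRT18 and KRT19, with means of 3615, 2281 and 506 CPM in LV-NC and 3687, 2487 and 571 CPM in MUCP1-FLAG. The cadherin gene CDH1 fell (log2 fold change −1.06 ± 0.08 SE), as did EPCAM (−0.33 ± 0.05) and VIL1 (−0.40 ± 0.10), while KRT19 rose (0.17 ± 0.05). The part of these markers in the results below was not tested. Marker lists of fibroblasts, blood cells, endothelium and adipocytes summed to at most 1.36, 2.96, 4.17 and 0.556 CPM in any library, and that of muscle to 5.18 to 6.36 CPM, most of it DES. In bulk RNA, fewer cells of a type and less RNA per cell cannot be told apart.

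Most carrier genes did not pass the test for a difference between the groups, and the changes that passed were small. Of the 47 members, 40 passed the filter on low counts; 7 rose and 2 fell in MUCP1-FLAG at an adjusted p under 0.05 (edgeR quasi-likelihood test, adjusted over all 12920 tested genes). The corresponding shares of all tested genes were 8.35% and 7.71%. UCP2 rose most, 1.53-fold, followed by SLC25A20, SLC25A29 and SLC25A23, and then by SLC25A17, SLC25A3 and SLC25A13. SLC25A15 and SLC25A25 fell. In the order named, the genes are ENSG00000175567, ENSG00000178537, ENSG00000197119, ENSG00000125648, ENSG00000100372, ENSG00000075415, ENSG00000004864, ENSG00000102743 and ENSG00000148339. The median log2 fold change was 0.05 over the tested members, with a range from −0.34 to 0.61, and −0.004 over all tested genes. A value above 0 was found for 24 of the 40 members, or 60%, beside 49% of all tested genes.

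**Figure D1:**
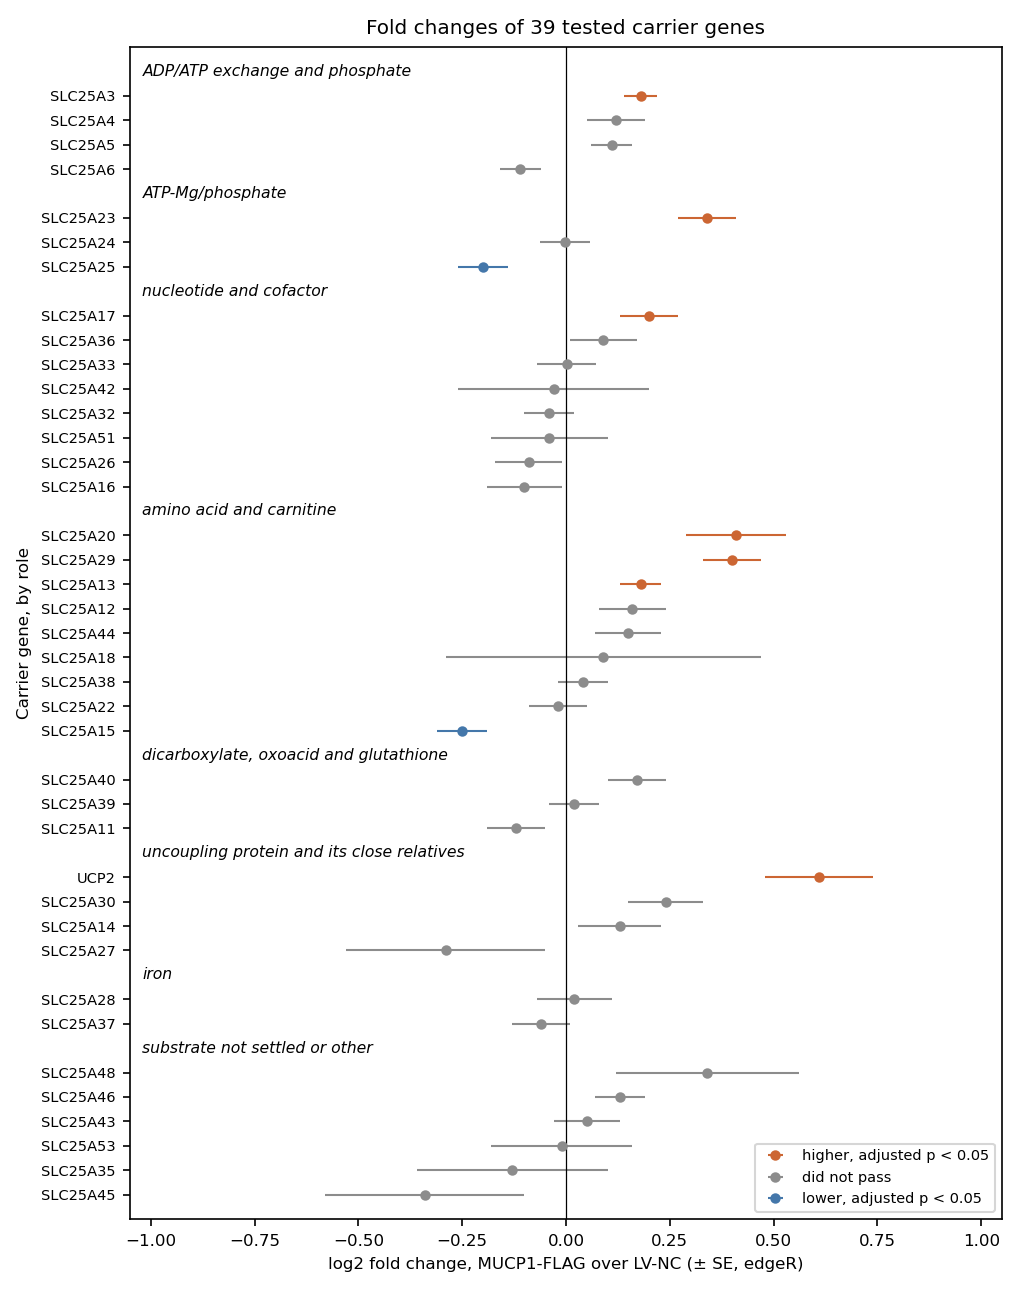
Each point is the log2 fold change of 1 of 39 tested carrier genes, MUCP1-FLAG over LV-NC, from counts, with its standard error as a bar; genes are sorted by role, and colour marks those that passed the test. Most points lie within 0.25 of 0, and UCP2 stands farthest out at 0.61.

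The count of calls varied with the libraries and settings used, and is given here with the percentage of all tested genes called in the same fit. Leaving out MUCP1-FLAG replicate 2 left 3 members higher and 0 lower (all genes 5.56% and 5.1%). Leaving out replicate 1 of that group left 4 and 1 (5.89% and 5.74%), and leaving out its replicate 3 left 5 and 1 (4.91% and 4.79%). For LV-NC the numbers were 7 and 2 without replicate 1 (9.16% and 8.11%), 5 and 0 without replicate 2 (5.16% and 5.26%) and 11 and 3 without replicate 3 (10.2% and 9.31%). Members higher and lower numbered 7 and 2 with DESeq2 size factors (8.27% and 7.72%), with no filter (7.51% and 6.47%) and with a minimum count of 50 (8.95% and 8.46%). They numbered 5 and 2 in DESeq2 (6.78% and 5.69%) and 6 and 2 with a replicate block (7.78% and 7.38%). On FPKM, limma called 4 higher and 0 lower with a pseudocount of 1 (3.98% and 4.21%) and with one of 0.1 (3.99% and 4.25%). At an unadjusted p under 0.05, 12 members were higher and 3 lower in the edgeR fit with all libraries, 15 of 40 beside 29.4% of all tested genes. UCP2, SLC25A23 and SLC25A29 stayed under the threshold in each of the 13 alternative settings tried, and SLC25A3 in 12 of them; these 4 are the genes called on FPKM. The authors' deposited table listed 5 members as higher and 1 as lower by its own adjusted p, with the same threshold, and all 6 were among the edgeR calls. The share of all genes called by the authors' test was not computed here, so these numbers have no background beside them.

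The 3 CPM values of MUCP1-FLAG all lay above the 3 of LV-NC for 13 of the 40 members and below them for 2. Over all tested genes these shares were 16.6% and 16.4%, or 33.1% in either direction. The 9 members that passed the test were among them, as were 2049 of the 2075 genes called overall. The other 6, which were higher without passing the test, were SLC25A5, SLC25A14, SLC25A30, SLC25A40, SLC25A46 and SLC25A48. Replicate spread was small: the median coefficient of variation of CPM over the tested members was 6.34% in LV-NC, against 4.43% in MUCP1-FLAG, beside 6.8% and 5.22% over all tested genes.

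**Figure D2:**
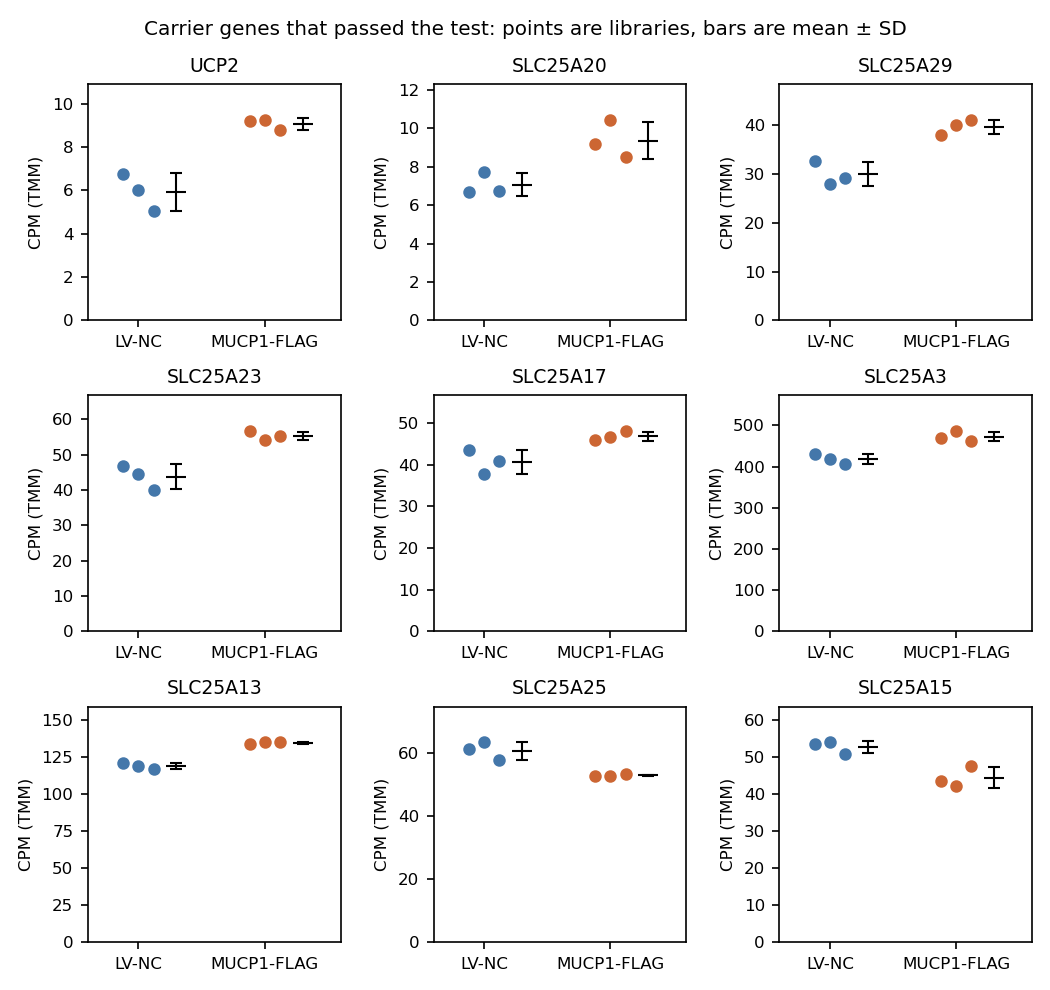
Points are CPM values of single libraries for the 9 carrier genes that passed the test, and bars give the mean and SD of 3 libraries; each vertical axis starts at 0. In every panel the 3 points of one group lie apart from the 3 of the other, from UCP2, at 5.03 to 6.78 against 8.77 to 9.23 CPM, to SLC25A15, which is lower in MUCP1-FLAG.

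The carriers differed widely in level per length. Mean deposited FPKM, which scales counts for gene length and library size, was at least 100 for 4 members, 10 to 100 for 20, 1 to 10 for 13 and under 1 for 10. SLC25A3, SLC25A5, SLC25A6 and SLC25A39 were the 4 highest and together held 71.5% to 73.1% of the family's summed FPKM in each library. That sum was 1651 to 1740 FPKM in LV-NC, against 1755 to 1783 FPKM in MUCP1-FLAG. The groups did not overlap, but the gap between them was smaller than the spread in LV-NC. Summed counts of the members without these 4 were 1203 to 1231 CPM in LV-NC, against 1264 to 1282 CPM in MUCP1-FLAG, again without overlap. Neither sum was tested, and of all tested genes 33.1% did not overlap between the groups in CPM. The 7 members that failed the filter were SLC25A2, SLC25A21, SLC25A31, SLC25A34, SLC25A41, SLC25A47 and SLC25A52, with 0 to 13 counts in a library. SLC25A2, a relative of the ornithine carrier, and SLC25A31, the testis form of the ADP/ATP carrier, had no read in any library. SLC25A21, a carrier of oxodicarboxylates, had 10, 9 and 13 counts in LV-NC, against 5, 3 and 7 in MUCP1-FLAG, too few for the test.

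**Figure D3:**
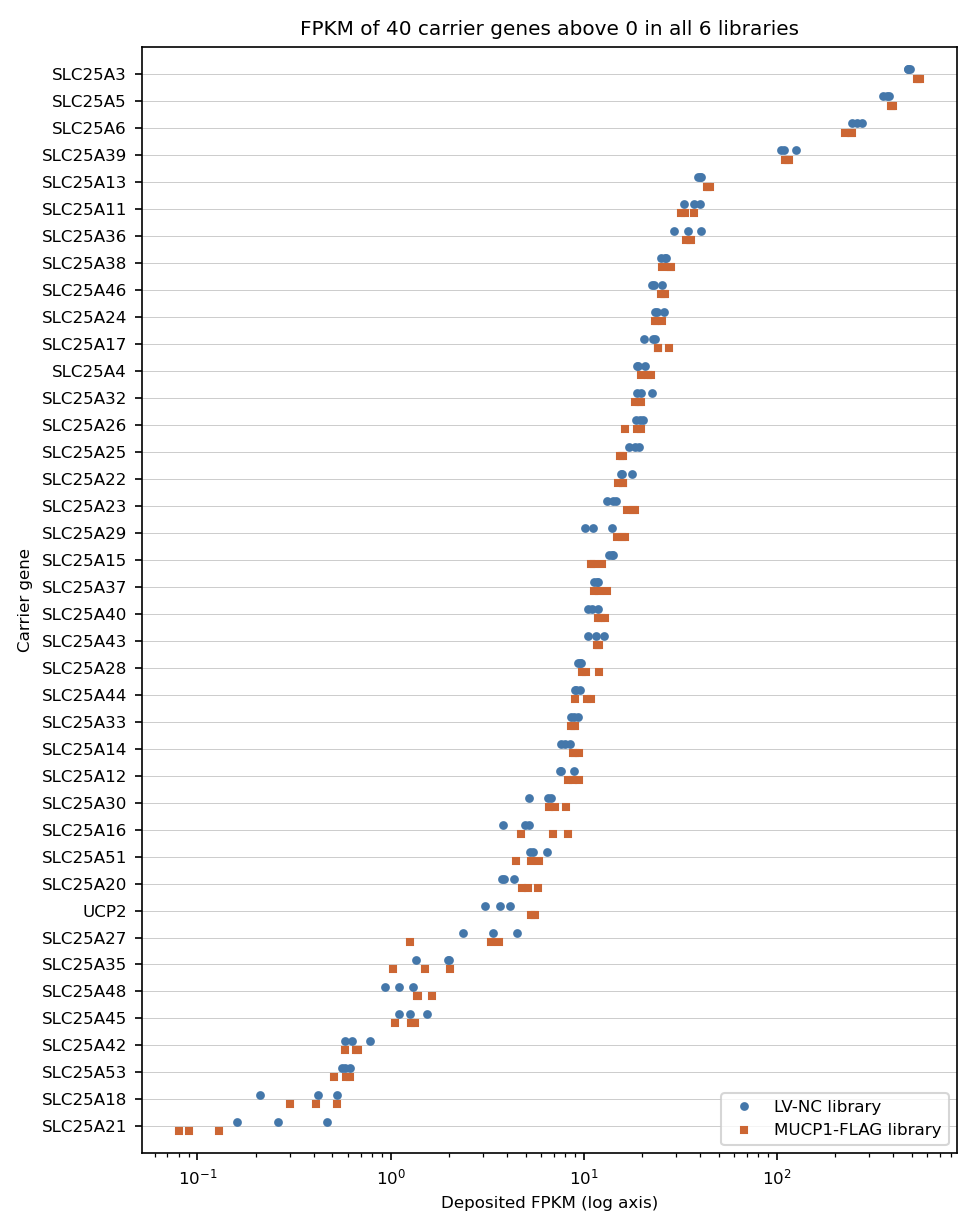
Deposited FPKM on a log axis in each library for 40 carrier genes above 0 in all 6, ordered by their mean. SLC25A3 is highest, near 510 FPKM, and the points of the 2 groups lie close together for most genes.

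Promoter sequence was read for the members, taking the 250 bases before each annotated start in RefSeq (build GRCh38.p14). Of the 47 members 39 had an entry, with 51 starts in all, and those without one included SLC25A2, SLC25A16, SLC25A30, SLC25A32, SLC25A35, SLC25A37 and SLC25A41. Matches in SLC25A6 were listed more than once at the same positions, so its promoter appears to count repeatedly among these starts. The CCAAT box, searched as CCAAT on both strands, was found at 43.1% of the members' starts and 32% of all 35116 starts. CCGGAAG, the core bound by ETS factors such as GABPA, was found at 21.6% and 8.52%, the NRF1 motif at 7.84% and 5.07%, the GC box GGGCGG at 66.7% and 42.6% and the E-box CACGTG at 15.7% and 6.34%, also on both strands. None of these motifs contains another. Motifs of YY1, CRE, ERR and SREBP were found at 1.96%, 5.88%, 0% and 1.96% of the members' starts and 1.36%, 1.65%, 0.319% and 0.883% of all starts. The members' windows had a higher content of G and C, with a median of 65.6% against 58%. Of the 7 members that rose, 7 had a GC box, 6 a CCAAT box and 2 CCGGAAG; counted per gene in the same way, 29, 20 and 11 of the 39 members with an entry had them. Of the 2 that fell, both had a GC box, and SLC25A25 but not SLC25A15 had a CCAAT box and CCGGAAG.

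The 30 bases around 1 match are shown for the carriers that rose and for SLC25A25, which fell. The match is a CCAAT box where there was one, and otherwise CCGGAAG. SLC25A15, which also fell, had neither of these motifs and is not shown. Each stretch runs 5′ to 3′ on the gene's strand, with the motif in capitals, and ATTGG in SLC25A29 is CCAAT on the opposite strand. The first 6 genes rose and carry a CCAAT box.
UCP2, CCAAT, chr11:73983342-73983371, − strand: cggcggctgtaaCCAATcgacagcgaggcc
SLC25A29, CCAAT, chr14:100306524-100306553, − strand: ccgtgcccgcccATTGGcctcactcggcgc
SLC25A23, CCAAT, chr19:6459831-6459860, − strand: ggtcccctccccCCAATgcaggtcggggga
SLC25A3, CCAAT, chr12:98593580-98593609, + strand: cgctcttctccaCCAATgggcgacgcgtac
SLC25A13, CCAAT, chr7:96322132-96322161, − strand: ggctgggcccagCCAATgggcgggcagcat
SLC25A17, CCAAT, chr22:40819438-40819467, − strand: cgcccacaggggCCAATcagcgttcagggg
SLC25A20, ETS core, chr3:48898957-48898986, − strand: cggggccgaggCCGGAAGcagccccgggcg
SLC25A25, CCAAT, chr9:128098444-128098473, + strand: gggcttaagcagCCAATgacagctgaggcc
In these 8 genes the last base of the match lay 47 to 153 bases before an annotated start. For SLC25A25 and SLC25A23 this start lies far inside the gene span given below. Their stretches are therefore not at the outer end of the gene. A match describes the letters only.

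Among the carriers that serve ATP synthesis, the phosphate carrier gene rose and the ADP/ATP carrier genes had values of either sign that did not pass the test. SLC25A3 brings phosphate into the matrix for ATP synthase; its gene lies on chromosome 12 at 98593591 to 98606379 (GRCh38, GENCODE 29). SLC25A3 stood at 487, 477 and 479 FPKM in LV-NC and at 534, 550 and 530 FPKM in MUCP1-FLAG. All 3 MUCP1-FLAG libraries were above the LV-NC libraries. In counts it went from 419 ± 12.5 to 473 ± 11.4 CPM (SD, n = 3 per group), a log2 fold change of 0.18 ± 0.04 SE (adjusted p 0.00786 in edgeR). Without MUCP1-FLAG replicate 2 the adjusted p of SLC25A3 was 0.0537. GENCODE 29 names 2 pseudogenes of SLC25A3, which may share its reads.

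SLC25A5 and SLC25A6 encode the ADP/ATP carriers of proliferating and of most other cells, which export ATP in exchange for ADP. SLC25A5 had 381, 373 and 352 FPKM in LV-NC and 387, 399 and 393 FPKM in MUCP1-FLAG, with the lowest MUCP1-FLAG library just above the highest LV-NC library. Its log2 fold change was 0.11 ± 0.05 (adjusted p 0.107 in edgeR), and 0.14 without LV-NC replicate 1 (adjusted p 0.0335). SLC25A6 had 275, 258 and 244 FPKM in LV-NC and 226, 245 and 243 FPKM in MUCP1-FLAG. The SLC25A6 groups overlapped, and the log2 fold change was −0.11 ± 0.05 (adjusted p 0.168 in edgeR); without LV-NC replicate 3 it was −0.15 (adjusted p 0.014). SLC25A4, the form typical of heart and muscle, was far lower at a mean of 20.4 FPKM, with a log2 fold change of 0.12 ± 0.07 (adjusted p 0.251 in edgeR).

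As shares of the summed FPKM of the ADP/ATP carriers, the values of SLC25A5 and of SLC25A6 did not overlap between the groups. SLC25A5 held 56.3%, 57.4% and 57.2% in LV-NC, against 61%, 60.2% and 59.8% in MUCP1-FLAG, a mean difference of 3.34 percentage points. SLC25A6 held 40.6%, 39.7% and 39.7% in LV-NC, against 35.5%, 36.9% and 37% in MUCP1-FLAG, a difference of −3.56 points. Each gave an exact two-sided permutation p of 0.1, the smallest that 3 against 3 libraries allow, and a Benjamini-Hochberg value of 0.275 over the 11 shares tested. These shares therefore could not pass the threshold in this design. The 2 differences are also not independent, since shares of a group add up to a fixed total. SLC25A4 held a mean of only 3.02% in LV-NC and 3.25% in MUCP1-FLAG. GENCODE 29 names 9 pseudogenes of SLC25A5 and 6 of SLC25A6 that may share their reads, so both values are uncertain.

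**Figure D4:**
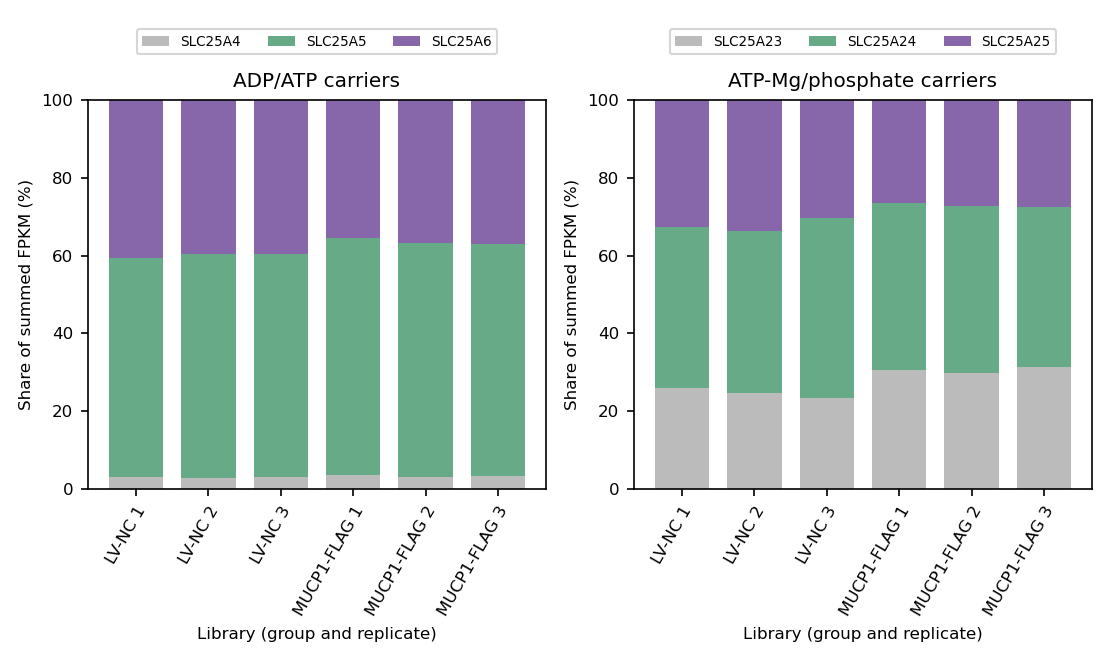
Stacked bars give the share of each gene in the summed FPKM of the ADP/ATP carriers (left) and the ATP-Mg/phosphate carriers (right), in percent, for each of the 6 libraries. In MUCP1-FLAG the share of SLC25A5 is above and that of SLC25A6 below every LV-NC library, and SLC25A23 takes 29.9% to 31.5% against 23.4% to 26%.

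The calcium-regulated ATP-Mg/phosphate carriers, which adjust the adenine nucleotide content of the matrix, had 1 of 3 tested members higher and 1 lower, beside 8.35% and 7.71% of all tested genes. SLC25A23 (chromosome 19, 6436079 to 6465203) had 46.8, 44.7 and 39.9 CPM in LV-NC and 56.6, 54.3 and 55.4 CPM in MUCP1-FLAG. All MUCP1-FLAG libraries were higher, with a log2 fold change of 0.34 ± 0.07 (adjusted p 0.00106 in edgeR). SLC25A25 (chromosome 9, 128068201 to 128109245) had 61.2, 63.3 and 57.7 CPM in LV-NC and 52.8, 52.8 and 53.2 CPM in MUCP1-FLAG. It fell with a log2 fold change of −0.20 ± 0.06 (adjusted p 0.0237 in edgeR), and each MUCP1-FLAG library was below each LV-NC library. SLC25A24, the most abundant of them at a mean of 24.4 FPKM, had 86.9 ± 5.44 and 86.8 ± 3.18 CPM and a log2 fold change of −0.0014 ± 0.06 (adjusted p 0.991 in edgeR).

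As shares of their summed FPKM, SLC25A23 went from 24.7% ± 1.3 to 30.7% ± 0.78 and SLC25A25 from 32.2% ± 1.7 to 27.2% ± 0.51 (SD, n = 3 per group), without overlap. The exact permutation p was 0.1 for both, again the smallest possible. Here too the shares are tied to each other by their fixed total. The call of SLC25A25 was lost without LV-NC replicate 2 (adjusted p 0.156) and without MUCP1-FLAG replicates 1, 2 and 3 (adjusted p 0.0668, 0.0883 and 0.0794). Genes on the opposite strand overlap 13.5% (SLC25A25-AS1) and 2.61% of the exonic bases of SLC25A25, and reads of either strand may have been counted.

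Carriers of amino acids and carnitine held 4 of the 9 calls, with 3 of 9 tested members higher and 1 lower, beside 8.35% and 7.71% of all tested genes. SLC25A29 transports basic amino acids such as arginine and lysine; its gene lies on chromosome 14 at 100291111 to 100306547. It had 32.6, 28 and 29.2 CPM in LV-NC and 37.9, 39.9 and 40.9 CPM in MUCP1-FLAG. Every MUCP1-FLAG library was higher, with a log2 fold change of 0.40 ± 0.07 (adjusted p 0.000554 in edgeR). A noncoding gene on the opposite strand overlaps 9.3% of its exonic bases. SLC25A15, the ornithine carrier that connects the urea cycle steps of matrix and cytosol, lies on chromosome 13 at 40789412 to 40810111. It had 53.4, 53.9 and 50.9 CPM in LV-NC and 43.5, 42.1 and 47.5 CPM in MUCP1-FLAG, lower in every library. The log2 fold change was −0.25 ± 0.06 (adjusted p 0.00965 in edgeR). The call of SLC25A15 was lost without LV-NC replicate 2 (adjusted p 0.0604) and without MUCP1-FLAG replicate 2 (adjusted p 0.08), and GENCODE 29 names 5 pseudogenes of this gene.

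SLC25A20 is the carnitine-acylcarnitine carrier, which brings fatty acyl groups into the matrix for oxidation (chromosome 3, 48856931 to 48898993). It was among the lower carriers, with 6.67, 7.74 and 6.75 CPM in LV-NC and 9.16, 10.4 and 8.51 CPM in MUCP1-FLAG, from 128 to 239 counts a library. The groups did not overlap, and the log2 fold change was 0.41 ± 0.12 (adjusted p 0.0253 in edgeR). That call was lost in DESeq2 (adjusted p 0.0916), on leaving out replicate 1 of LV-NC (0.0587) and on leaving out MUCP1-FLAG replicates 1 or 2 (0.0545 and 0.162). GENCODE 29 names 1 pseudogene of SLC25A20.

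SLC25A13 and SLC25A12 encode the aspartate-glutamate carriers, which move aspartate to the cytosol in exchange for glutamate as part of the malate-aspartate shuttle. SLC25A13 (chromosome 7, 96120220 to 96322147) had 121, 119 and 117 CPM in LV-NC and 134, 135 and 135 CPM in MUCP1-FLAG. All MUCP1-FLAG libraries were above all LV-NC libraries, and the log2 fold change was 0.18 ± 0.05 (adjusted p 0.015 in edgeR). SLC25A12 had 24.2, 26.4 and 24.4 CPM in LV-NC and 29.5, 28.5 and 25.8 CPM in MUCP1-FLAG. Its groups overlapped, and its log2 fold change of 0.16 ± 0.08 did not pass the test (adjusted p 0.184 in edgeR). SLC25A12 held 16.8% ± 1.6 of the pair's summed FPKM in LV-NC, against 16.7% ± 0.7 in MUCP1-FLAG. The call of SLC25A13 was lost without LV-NC replicate 2 (adjusted p 0.0735) and without MUCP1-FLAG replicates 1, 2 and 3 (0.0504, 0.0647 and 0.0755).

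SLC25A22, the main glutamate carrier of the matrix in these cells, had 37 ± 2.98 CPM in LV-NC, against 36.5 ± 2.02 CPM in MUCP1-FLAG, with a log2 fold change of −0.02 ± 0.07 (adjusted p 0.89 in edgeR). Its paralogue SLC25A18 was near the limit of detection with 8 to 22 counts a library, so SLC25A22 held 97.7% and 97.4% of the pair's FPKM in the 2 groups. SLC25A44, a carrier of branched-chain amino acids, had 0.15 ± 0.08 (adjusted p 0.204 in edgeR) and SLC25A38, which supplies glycine for haem synthesis, 0.04 ± 0.06 (adjusted p 0.701).

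UCP2 carries the name of an uncoupling protein and exchanges dicarboxylates such as malate and aspartate for phosphate; it lies on chromosome 11 at 73974667 to 73983307. UCP2 had 6.78, 6.03 and 5.03 CPM in LV-NC and 9.22, 9.23 and 8.77 CPM in MUCP1-FLAG, from 96 to 212 counts a library. The MUCP1-FLAG libraries lay close together and well above the LV-NC libraries. The log2 fold change was 0.61 ± 0.13, or 1.53-fold (adjusted p 0.00222 in edgeR), and it ranged from 0.51 to 0.71 when single libraries were left out. UCP2 remained a low-level carrier at a mean of 4.56 FPKM.

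Its relatives with less settled substrates did not pass the test. SLC25A30 had 15.5, 14.7 and 17.7 CPM in LV-NC and 17.9, 19.2 and 19.3 CPM in MUCP1-FLAG, a log2 fold change of 0.24 ± 0.09 (adjusted p 0.0789 in edgeR; adjusted p 0.0152 without LV-NC replicate 3). SLC25A14 had 0.13 ± 0.10 (adjusted p 0.439), and SLC25A27, a brain form, had −0.29 ± 0.24 (adjusted p 0.46). UCP1 and UCP3, the uncoupling proteins of brown fat and muscle, failed the filter. UCP1 had 2, 11 and 2 counts in LV-NC, against 0, 1 and 0 in MUCP1-FLAG, and UCP3 had 2, 2 and 1, against 6, 6 and 15. Neither gene overlapped between the groups in CPM, in opposite directions, at counts too low for the test.

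Among 9 tested carriers of nucleotides and cofactors 1 rose, or 11.1%, near the 8.35% of all tested genes that were higher. SLC25A17 carries coenzyme A, FAD and NAD in the peroxisomal membrane (chromosome 22, 40769630 to 40819399). It had 43.5, 37.7 and 40.9 CPM in LV-NC and 45.9, 46.6 and 48 CPM in MUCP1-FLAG, with a gap between the groups smaller than the spread in LV-NC. The log2 fold change was 0.20 ± 0.07 (adjusted p 0.0412 in edgeR). That call was lost without LV-NC replicate 2 (adjusted p 0.251), without MUCP1-FLAG replicates 1, 2 and 3 (0.0835, 0.106 and 0.164) and in DESeq2 (0.0768).

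The other cofactor carriers described here did not pass the test in edgeR. SLC25A36 and SLC25A33, carriers of pyrimidine nucleotides, had 0.09 ± 0.08 (adjusted p 0.451) and 0.0013 ± 0.07 (adjusted p 0.993). SLC25A36 was spread in LV-NC, at 113, 132 and 147 CPM, beside 142, 136 and 142 CPM in MUCP1-FLAG, and passed the test when LV-NC replicate 3 was left out (adjusted p 0.0212). SLC25A26, which imports the methyl donor S-adenosylmethionine, had −0.09 ± 0.08 (adjusted p 0.466), SLC25A32, a carrier of folate or FAD, −0.04 ± 0.06 (0.709), SLC25A51, which imports NAD, −0.04 ± 0.14 (0.889) and SLC25A42, a coenzyme A carrier, −0.03 ± 0.23 (0.957). Exons of SLC25A32 overlap by 69.7% with another gene of the table on the same strand, so its counts are uncertain.

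Counts and FPKM disagreed for SLC25A16, a carrier that has been linked to coenzyme A. Its CPM was 16, 17.7 and 18 in LV-NC, against 16.4, 16.6 and 15.3 in MUCP1-FLAG, a log2 fold change of −0.10 ± 0.09 (adjusted p 0.511 in edgeR). Its deposited FPKM was 4.99, 5.23 and 3.81 in LV-NC, against 8.27, 4.72 and 6.91 in MUCP1-FLAG, and the log2 ratio of the FPKM means was 0.50. The length implied by its counts and FPKM ran from 1974 to 4772 bases between libraries, a coefficient of variation of 31.7%. For SLC25A5, SLC25A6 and SLC25A33 that coefficient was under 0.1%, and for UCP2 it was 0.189%. SLC25A29 had 7.46% and SLC25A30 10.6%, with a log2 ratio of FPKM means of 0.41 and 0.24, close to their values from counts, as was SLC25A27, with 16.7% and −0.33 against −0.29. The units differed more for SLC25A45, with 13.9% and −0.10 from FPKM against −0.34 from counts, and for SLC25A28, with 6.91% and 0.17 against 0.02.

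**Figure D5:**
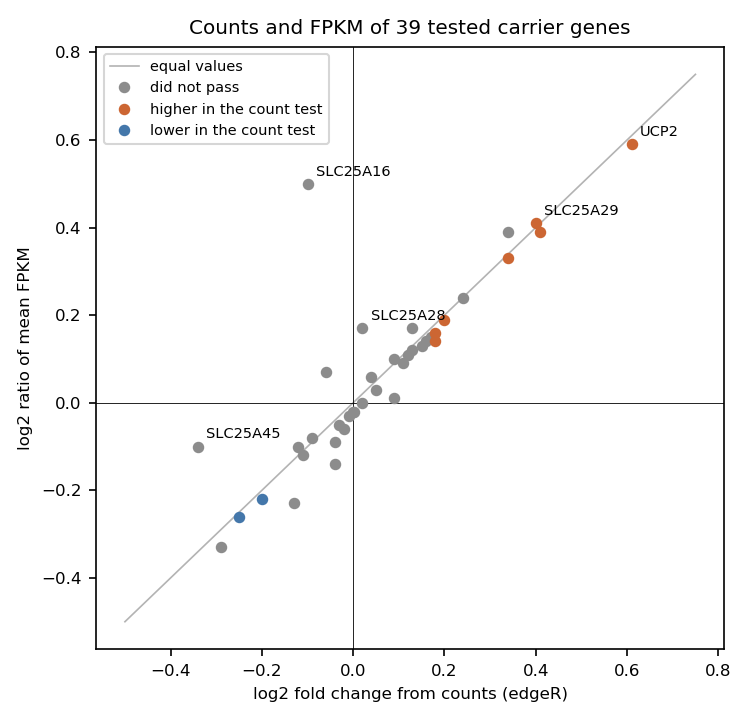
The log2 fold change from counts is plotted against the log2 ratio of group means in deposited FPKM for 39 of the 40 tested carrier genes, and the grey line marks equal values. Most points follow the line, and SLC25A16 departs from it, at −0.10 from counts and 0.50 from FPKM.

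Carriers of oxoacids and glutathione gave 0 calls among 3 tested in edgeR, in DESeq2 and in limma, with 1 at an unadjusted p under 0.05 in edgeR. Over all tested genes edgeR called 16.1% in either direction, and 29.4% had an unadjusted p under 0.05. SLC25A11, which exchanges oxoglutarate for malate in the malate-aspartate shuttle, had 50.8, 48.9 and 43.6 CPM in LV-NC and 41.7, 43.3 and 47.1 CPM in MUCP1-FLAG. The groups overlapped, with a log2 fold change of −0.12 ± 0.07 (adjusted p 0.281 in edgeR). SLC25A39, a glutathione carrier and the fourth most abundant member, had 126, 108 and 106 FPKM in LV-NC and 116, 110 and 114 FPKM in MUCP1-FLAG. These overlapped too, with 0.02 ± 0.06 (adjusted p 0.845). Its paralogue SLC25A40 had 0.17 ± 0.07 (adjusted p 0.0933, or 0.0373 without LV-NC replicate 3) at a mean of 11.8 FPKM against 113 for SLC25A39.

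The mitoferrin genes, which supply iron for haem and iron-sulphur clusters, were at 34.7 ± 0.584 and 33.4 ± 0.908 CPM for SLC25A37 and at 13.6 ± 0.239 and 13.9 ± 0.947 CPM for SLC25A28. Neither of the 2 passed the test in edgeR, DESeq2 or limma, and 0 had an unadjusted p under 0.05. Their log2 fold changes were −0.06 ± 0.07 (adjusted p 0.624 in edgeR) and 0.02 ± 0.09 (adjusted p 0.894). Of the 6 tested carriers with unsettled substrates or other roles, 0 passed in these 3 tools, with 1 at an unadjusted p under 0.05 in edgeR. For both sets the all-gene shares in edgeR were 16.1% called in either direction and 29.4% at an unadjusted p under 0.05. SLC25A46, an outer membrane protein of mitochondrial dynamics, had 68, 69 and 75.2 CPM in LV-NC and 77.5, 76.8 and 77.7 CPM in MUCP1-FLAG. Every MUCP1-FLAG library was higher, with 0.13 ± 0.06 (adjusted p 0.132, or 0.0214 without LV-NC replicate 3). SLC25A48 had 0.34 ± 0.22 and SLC25A45 −0.34 ± 0.24 (adjusted p 0.342 and 0.373), each at about 2 CPM. SLC25A43, SLC25A53 and SLC25A35 had 0.05 ± 0.08, −0.01 ± 0.17 and −0.13 ± 0.23 (adjusted p 0.696, 0.967 and 0.748). Of the 2 family members outside the rule, the citrate carrier SLC25A1 had 0.63 ± 0.10 (adjusted p 0.00045 in edgeR) and the dicarboxylate carrier SLC25A10 had 0.11 ± 0.07 (adjusted p 0.351).

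Carriers are imported through the TOM complex, handed over by small TIM chaperones and inserted by the TIM22 complex. Of the mRNAs of 8 TOM genes 0 passed in edgeR, DESeq2 or limma, with 2 at an unadjusted p under 0.05 in edgeR and a median log2 fold change of 0.04. Over all tested genes edgeR called 16.1% in either direction, and 29.4% had an unadjusted p under 0.05. Of 9 genes of the small TIMs and the TIM22 complex 1 rose, TIMM10B, at 64.9, 66.6 and 64.8 CPM in LV-NC and 80.8, 82.8 and 81.4 CPM in MUCP1-FLAG (log2 fold change 0.32 ± 0.05, edgeR adjusted p 0.000244). That is 11.1% of the list, beside 8.35% of all tested genes. Outer membrane channels and MTCH genes gave 0 calls of 5 in the 3 tools, with 3 at an unadjusted p under 0.05 in edgeR and a median of 0.13. The all-gene shares beside these are again 16.1% and 29.4%.

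For genes of other transporter families of the mitochondrial membranes some calls depended on the tool. Of 5 sideroflexin genes, SFXN3 rose (0.21 ± 0.07, edgeR adjusted p 0.0331) and SFXN4 fell (−0.24 ± 0.07, 0.0218), beside 8.35% higher and 7.71% lower over all tested genes. Both calls were lost in DESeq2, which called 0 of the 5, with 1 higher and 1 lower at an unadjusted p under 0.05. DESeq2 called 6.78% of all genes higher and 5.69% lower. In limma on FPKM 1 of the 5 sideroflexin genes was higher and 1 lower with each pseudocount. The all-gene shares were 3.98% and 4.21% with a pseudocount of 1, and 3.99% and 4.25% with one of 0.1. Among genes of calcium uptake and release, MCUB rose (0.31 ± 0.07, 0.00651) and the exchanger gene SLC8B1 fell (−0.29 ± 0.09, 0.038), a call lost in DESeq2. Of 4 ABC transporter genes 1 rose, ABCB6 (0.55 ± 0.13, edgeR adjusted p 0.00531), beside 8.35% of all tested genes. That call was lost in limma on FPKM, which called 0 of the 4 with 0 at an unadjusted p under 0.05. Of all tested genes limma called 3.98% higher with a pseudocount of 1 and 3.99% with one of 0.1. Of 10 regulators of mitochondrial genes, such as NRF1, GABPA and the PGC coactivators, 0 passed in edgeR, DESeq2 or limma. In edgeR 1 of them had an unadjusted p under 0.05, and the median log2 fold change was −0.01, with 4 of the 10 above 0. The PGC coactivator gene PPARGC1A was near the limit of detection. It had 9, 8 and 11 counts in LV-NC, against 18, 14 and 12 in MUCP1-FLAG. Its log2 fold change of 0.66 ± 0.41 (adjusted p 0.303 in edgeR) is too uncertain to call it unchanged. Over all tested genes edgeR called 16.1% in either direction, and 29.4% had an unadjusted p under 0.05.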

How the data were processed

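The submitters' processing notes name GRCh38 and the tools fastp, HISAT2, DESeq2 and featureCounts, without roles or a strand setting. The authors deposited whole-number read counts and FPKM values per gene and library, per the file headers. Their deposited log2 fold change is the log2 ratio of mean FPKM, and their deposited p-value comes from a test that no label or header names. Counts were tested with edgeR 4.0.16 in R 4.3.3 (robust quasi-likelihood F test, TMM scaling, filterByExpr with a minimum count of 10), with Benjamini-Hochberg adjustment over 12920 genes and a threshold of 0.05. The fit was tested on simulated data. Standard errors (after ±) of log2 fold changes were derived from F, and CPM uses TMM library sizes. Paralogue shares were compared with exact permutation tests (scipy 1.17.1). Alternatives were DESeq2 1.42.0, limma 3.58.1 on log2(FPKM + 1) and log2(FPKM + 0.1), other scaling and filters, a replicate block and leaving out each library. Values in all libraries are given for each called member and the 4 with the highest FPKM, by rule, and for further members chosen after their values were seen. Members, lists and tests were chosen with earlier results of these data known. GENCODE 29 matched all 47 members, 20 of which overlap exons of other genes and 13 of which have named pseudogenes. Some genes of the family and the comparison lists are not reported here by name.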

Additional observations from a re-analysis of the deposited data

How the results depend on the processing

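Scaling by DESeq2 size factors, no filter on low counts and a minimum count of 50 each left the same 9 carriers called. In the limma fits of FPKM, with pseudocounts of 1 and 0.1, 4 carriers were higher and 0 lower, with 3 lower at an unadjusted p under 0.05; over all genes 514 and 516 were higher and 544 and 549 lower. These tests use another unit and model, and the cause was not tested. With single libraries left out, 3 to 11 carriers were higher and 0 to 3 lower, and over all genes 639 to 1323 were higher and 624 to 1213 lower; 2 libraries in a group then stand against 3. The replicate block called 6 carriers higher and 2 lower, with SLC25A17 lost at an adjusted p of 0.05, and 1005 and 954 genes higher and lower over all genes. Libraries with the same number shared little: their deviations from the group means correlated at 0.0351, 0.0498 and 0.00239, and LV-NC replicate 3 and MUCP1-FLAG replicate 3 did not correlate best with each other.

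No called carrier changed direction under any alternative. Signs turned for members that did not pass the test: with limma, SLC25A16 had 0.41 and 0.47, SLC25A37 0.06 and 0.07, and SLC25A33 −0.02 at both pseudocounts. SLC25A33 had −0.003 with a minimum count of 50, and SLC25A24 had 0.00024 with DESeq2 and 0.0035 without a filter. When libraries were left out, values ranged from −0.21 to 0.38 for SLC25A18, −0.06 to 0.05 for SLC25A22, −0.03 to 0.05 for SLC25A24, −0.02 to 0.08 for SLC25A28, −0.08 to 0.0018 for SLC25A32, −0.02 to 0.03 for SLC25A33, −0.45 to 0.05 for SLC25A35, −0.0018 to 0.19 for SLC25A36, −0.03 to 0.10 for SLC25A39, −0.11 to 0.11 for SLC25A42, −0.01 to 0.11 for SLC25A43, −0.12 to 0.06 for SLC25A51 and −0.07 to 0.05 for SLC25A53. Differences in paralogue share ranged from −0.56 to 0.85 percentage points for SLC25A12, −1.89 to 0.56 for SLC25A24 and −0.58 to 0.20 for SLC25A22, and for SLC25A33 from −1.91 without LV-NC replicate 3 to 1.12 without LV-NC replicate 1. At the depth of these libraries SLC25A18, SLC25A42, SLC25A45, SLC25A48, SLC25A35 and SLC25A27 have standard errors of 0.22 to 0.38, so changes as small as those of SLC25A3 or SLC25A25 were not detectable for them.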
